A study of Mus musculus with 6 samples.

Results

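The genes of heterotrimeric G proteins and of the RGS proteins that switch them off were compared between VMHpvlm and VMHpvll, subdivisions of the ventromedial nucleus of the hypothalamus, in female mice. Members were taken by gene symbol alone. They were the numbered Rgs genes and the genes of the G protein alpha, beta and gamma subunits, 54 of the 47480 genes in the deposited table. Of these, 21 were RGS genes and 33 were subunit genes. All libraries came from VgluT2-cre/Ai6 females, in which Cre under control of the vesicular glutamate transporter gene Slc17a6 switches on a green fluorescent reporter. Tissue was taken by laser capture from frozen coronal sections. A captured area therefore held every cell type within its border, not only the labelled neurons. There were 3 libraries of VMHpvlm and 3 of VMHpvll, with no treatment, and ages are not given in the labels. The library titles carry the names F19, F20 and KH_161103 in both regions, and libraries of the same name were compared as pairs. Values of a gene are listed in that order throughout.

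A heterotrimeric G protein is an alpha subunit bound to a beta-gamma dimer at the inner face of the cell membrane. An activated receptor makes the alpha subunit exchange GDP for GTP, after which alpha and beta-gamma act separately on enzymes and ion channels. RGS proteins speed the hydrolysis of GTP by alpha subunits, mostly of the Gi/o and Gq families, and so shorten the signal. In the ventromedial hypothalamus, receptors for neuropeptides, monoamines and metabolic hormones signal through this cycle.

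Expression is given as the deposited normalised read count, that is, the number of reads of a gene divided by 1 scaling factor per library. The recovered library sizes were between 7353127 and 11293159 reads in VMHpvlm and between 7157831 and 11167288 reads in VMHpvll. Genes were tested when they averaged 10 or more normalised read counts. This held for 42 members, 17 RGS genes and 25 subunit genes, among 14522 genes. A log2 difference is the VMHpvlm level minus the VMHpvll level after log2(value + 1), with its standard error (SE) from limma, and a positive one means higher in VMHpvlm. A gene was called at a Benjamini-Hochberg adjusted p below 0.05 over all tested genes, and every adjusted p below is from that limma fit unless another tool is named. The 4 genes listed for glutamatergic neurons of the nucleus were Slc17a6, Nr5a1, Fezf1 and Nkx2-1. They were detected in every library, and all but Slc17a6 were called higher in VMHpvlm. Nr5a1, a transcription factor that marks ventromedial hypothalamic neurons, had 322, 286 and 316 normalised read counts in VMHpvlm, against 28.6, 26.8 and 39.3 in VMHpvll. Fezf1, another transcription factor of these neurons, had 1193, 1174 and 1205 in VMHpvlm, against 642, 657 and 628 in VMHpvll. Slc17a6 had between 4533 and 4810 in VMHpvlm and between 4928 and 4962 in VMHpvll, lower in VMHpvlm without overlap but not called (adjusted p = 0.0859). The summed level of 6 markers of GABAergic neurons was between 827 and 1088 in VMHpvlm and between 2076 and 2423 in VMHpvll. Of these, only Dlx6 was at 0 in a library, F20 of VMHpvlm. For 10 oligodendrocyte markers the sum was between 11972 and 13697 in VMHpvlm and between 16138 and 17374 in VMHpvll. The 8 pan-neuronal markers summed to between 38275 and 41207 in VMHpvlm and between 32603 and 36657 in VMHpvll. Of these 8, 5 were called higher in VMHpvlm and 0 lower. Snap25 had the largest gap, with means of 10258 in VMHpvlm and 7275 in VMHpvll, and only Tubb3 had a lower mean in VMHpvlm. In such tissue, fewer cells of a type and less RNA per cell cannot be told apart.

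Of the 42 tested members, 21 were called, which is 50% of them, against 20% of all tested genes. VMHpvlm had the higher level of 7 called members and the lower level of 14. Over all tested genes the shares were 10.5% called higher in VMHpvlm and 9.48% called higher in VMHpvll. The median log2 difference was -0.12 over the tested members and 0.00 over all tested genes. All 3 pairs had the same sign in 30 of the 42 tested members, against 48.1% of all tested genes. The same held for 20 of the 21 called members, with Gnaz the exception, but the calls rest on these same pairs, which favours agreement. The libraries of the regions did not overlap in 6 members that were higher in VMHpvlm and in 15 that were higher in VMHpvll, against 14.5% and 13.5% of all tested genes in these directions and 28% in both together. Differences were mostly below 2-fold, and Gna14 was the only called member past that size, against 2.7% of all tested genes called and past it. DESeq2 on the recovered reads called 1 of the 42 members higher in VMHpvlm and 8 higher in VMHpvll, and limma without the pair block called 2 and 11 in these directions. Over all 14522 tested genes, DESeq2 called 648 and 582 in these directions, and limma without the pair block called 937 and 863.

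**Figure D1:**
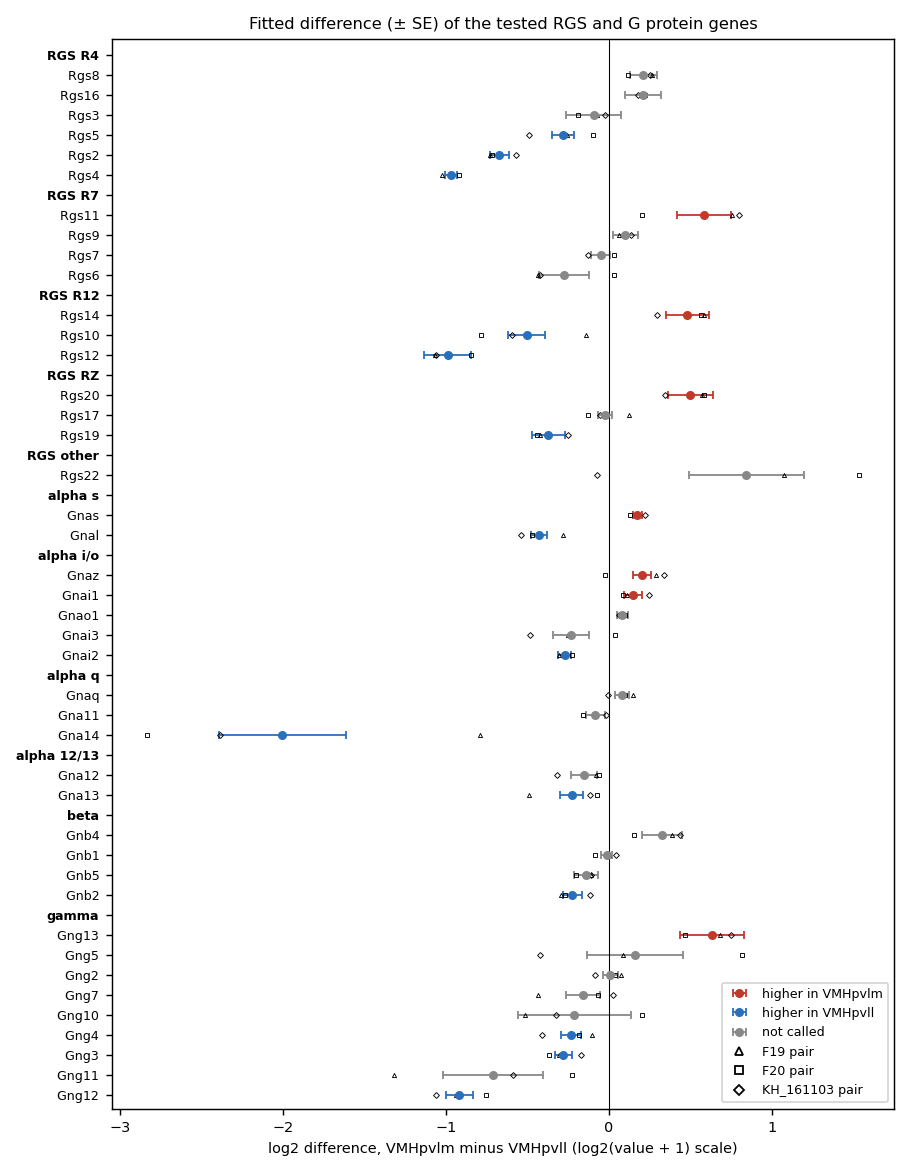
Log2 difference (VMHpvlm minus VMHpvll, pseudocount 1) of the 42 tested members, grouped by family, with bars for the standard error and colours for the call. Rgs4, Rgs12, Gng12 and Rgs2 lie left of zero, Gna14 lies farthest left at -2.0, and the 7 members called higher in VMHpvlm lie right of zero.

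The promoters of Rgs4, Rgs2 and Gng12 are shown because these genes are among the 4 members whose call held under every processing alternative tried. All 4 were lower in VMHpvlm. The 4th is Rgs12, whose promoters are not shown. Each sequence runs from 250 bases before to 50 bases after the annotated transcript start in RefSeq for GRCm38.p6, on the strand of the gene. The table held such windows for 40 of the 54 members, 53 windows in all. Capitals mark matches, on either strand, to 2 motifs. The first is TATAAA, the sequence known from core promoters. The second is TGACG, the core of the site bound by CREB, a factor that acts downstream of Gs and cyclic AMP. AGGTCA and CAAGGTCA, the sites of nuclear receptors such as the product of Nr5a1, were searched as well. CAAGGTCA contains AGGTCA. The Rgs4 window is chr1:169747593-169747892, minus strand, the Rgs2 window is chr1:144004100-144004399, minus strand, and the upstream one of the Gng12 windows is chr6:66896147-66896446, plus strand.
Rgs4: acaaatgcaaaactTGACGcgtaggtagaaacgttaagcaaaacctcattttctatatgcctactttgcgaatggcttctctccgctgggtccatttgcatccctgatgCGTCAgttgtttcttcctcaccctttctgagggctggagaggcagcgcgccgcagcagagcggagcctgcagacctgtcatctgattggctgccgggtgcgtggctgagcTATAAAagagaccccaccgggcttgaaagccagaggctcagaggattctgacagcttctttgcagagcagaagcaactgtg
Rgs2: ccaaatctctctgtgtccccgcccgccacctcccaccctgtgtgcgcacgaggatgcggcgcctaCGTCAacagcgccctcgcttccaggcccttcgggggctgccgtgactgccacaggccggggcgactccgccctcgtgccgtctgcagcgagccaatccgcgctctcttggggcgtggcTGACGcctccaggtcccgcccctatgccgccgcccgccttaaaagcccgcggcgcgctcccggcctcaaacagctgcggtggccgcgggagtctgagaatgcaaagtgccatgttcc
Gng12: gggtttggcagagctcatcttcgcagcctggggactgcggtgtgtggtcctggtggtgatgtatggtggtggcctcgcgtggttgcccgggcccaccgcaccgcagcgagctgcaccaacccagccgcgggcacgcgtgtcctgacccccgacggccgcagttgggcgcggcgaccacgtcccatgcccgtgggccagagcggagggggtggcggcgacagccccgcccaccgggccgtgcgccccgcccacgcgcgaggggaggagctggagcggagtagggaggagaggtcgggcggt
The Rgs4 window held TATAAA 31 bases upstream of the start and TGACG 236 and, on the opposite strand, 141 bases upstream. The Rgs2 window held TGACG 67 bases upstream and, on the opposite strand, 185 bases upstream. No match to any of the 4 motifs was found in the Gng12 window. Among all 32851 promoters in the table, 20.8% held TGACG, 13.6% held TATAAA, 16.3% held AGGTCA and 1.56% held CAAGGTCA. In the 53 member windows the shares were 24.5%, 17%, 7.55% and 0%, in the same order. These matches are descriptions of the letters, and binding was not measured.

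Rgs4 was the most abundant RGS gene per kilobase in both regions and was lower in VMHpvlm. RGS4 is a small protein of the R4 family that acts on Gi/o and Gq and is well known from cortex and other forebrain neurons. Rgs4 (ENSMUSG00000038530, chr1:169741477-169747642, minus strand) had 1959.9, 2215 and 2336 normalised read counts in VMHpvlm, against 3980.4, 4194 and 4560.0 in VMHpvll. All 3 VMHpvlm libraries lay far below all 3 VMHpvll libraries. The means were 2170.4 ± 192 in VMHpvlm and 4245 ± 293 in VMHpvll (SD, n = 3 each), a log2 difference of -0.97 ± 0.04 (SE, adjusted p = 2.4e-23). The pairs gave log2 differences of -1.02, -0.92 and -0.96. Leaving out a pair or changing the processing kept the difference between -0.99 and -0.94.

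Rgs2, whose product prefers Gq and which is induced quickly by many stimuli, lies on the same chromosome. It had 708, 759 and 755 normalised read counts in VMHpvlm, against 1177, 1247 and 1123 in VMHpvll, and the regions did not overlap. The log2 difference was -0.67 ± 0.06 (SE, adjusted p = 8.55e-13). Rgs5, a neighbour of Rgs4 on chromosome 1 and a classical marker of pericytes, moved less. It had 692, 697 and 524 normalised read counts in VMHpvlm, against 828, 745 and 737 in VMHpvll, with a log2 difference of -0.28 ± 0.07 (SE, adjusted p = 0.00169). Without the KH_161103 pair Rgs5 was not called. The 10 mural cell markers summed to between 645 and 1419 in VMHpvlm and between 833 and 2399.7 in VMHpvll, and of the 8 tested ones 2 were called, both higher in VMHpvll. Myh11 and Acta2, neither of them called, made up 1116 and 439 of the highest sum, that of F19 in VMHpvll. For endothelial cells the sum of 10 markers was between 1024 and 1123 in VMHpvlm and between 1526 and 1779.7 in VMHpvll. The part of these cells in the Rgs5 difference was not tested.

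The other tested R4 genes were not called. Rgs8, best known from cerebellar Purkinje cells, had 437, 466 and 404 normalised read counts in VMHpvlm and 364, 430.4 and 339 in VMHpvll, with an adjusted p of 0.0567. Rgs16 had means of 204 ± 26.4 in VMHpvlm and 176 ± 23.6 in VMHpvll (SD, n = 3 each), and Rgs3 had means of 74.4 ± 8.73 in VMHpvlm and 79.3 ± 6.6 in VMHpvll (SD, n = 3 each). Thus the R4 family had 3 called genes of 6 tested, all lower in VMHpvlm, and these were its 3 most abundant genes per kilobase. Rgs1, Rgs13, Rgs18 and Rgs21, known from immune cells and, for Rgs21, from taste tissue, did not reach a mean of 10. Rgs13 and Rgs21 were listed at 0 in every library.

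**Figure D2:**
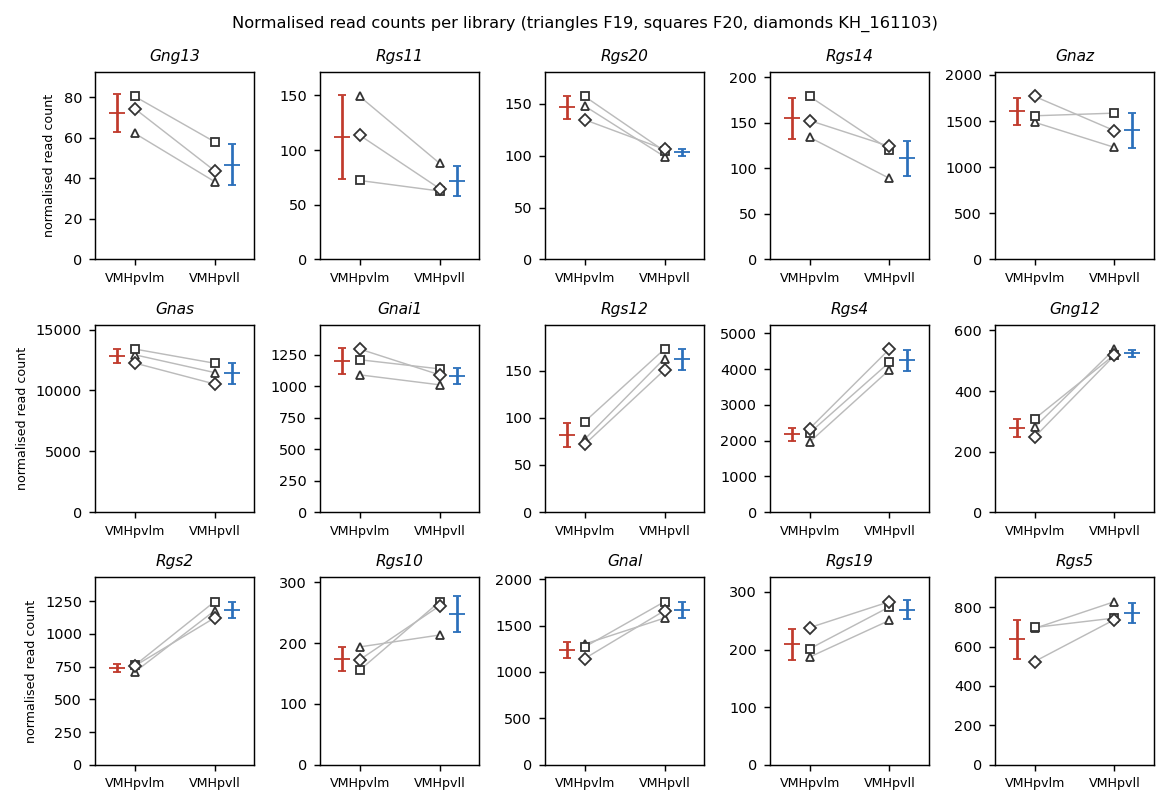
Normalised read counts of 15 members named by rule in each library, VMHpvlm left of VMHpvll in every panel, with points for libraries, lines between libraries of the same name, coloured bars for the mean and SD over 3 libraries, and axes that start at 0. For Rgs4 and Gng12 the VMHpvlm points lie at about the middle of the VMHpvll height, and for Gnas and Gnai1 the points of the regions lie close together.

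The R12 family, whose larger members carry a second domain that binds inactive Gi, was called in full, in both directions. Rgs12, a large scaffold protein with several protein-binding domains, had 77.2, 95.8 and 71.8 normalised read counts in VMHpvlm, against 163, 173 and 151 in VMHpvll. The regions did not overlap and the log2 difference was -0.99 ± 0.14 (SE, adjusted p = 4.56e-07). An antisense gene covers 5.5% of its exon bases. Rgs14, known for its high level in hippocampal area CA2, where it limits synaptic plasticity, went the other way. It had 134, 179 and 153 normalised read counts in VMHpvlm, against 89, 121 and 124 in VMHpvll, without overlap and with a log2 difference of 0.48 ± 0.13 (SE, adjusted p = 0.00704). Rgs10, a small RGS protein abundant in microglia and also made by neurons, had 194, 155 and 173 normalised read counts in VMHpvlm, against 213, 268 and 261 in VMHpvll. Its log2 difference was -0.51 ± 0.12 (SE, adjusted p = 0.000915), but only -0.14 in the F19 pair. The 12 microglial markers summed to between 1395 and 1501 in VMHpvlm and between 1489 and 1648 in VMHpvll. None of them was called by limma, with 1 of 12 at an unadjusted p below 0.05, and edgeR and DESeq2 called 0. The part of microglia in the Rgs10 difference was not tested.

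The RZ family acts preferentially on Gz, the alpha subunit encoded by Gnaz. Rgs17, its most abundant member here, had 2572, 2548 and 2599 normalised read counts in VMHpvlm, against 2366, 2791 and 2704 in VMHpvll, and was not called. The sign of its small difference changed with the scaling. Rgs20 had 148, 157 and 134 in VMHpvlm, against 98.9, 104 and 106 in VMHpvll, without overlap, with a log2 difference of 0.50 ± 0.14 (SE, adjusted p = 0.00636). Rgs19, also called GAIP for its binding to Gi alpha, had 187, 201 and 238 in VMHpvlm, against 251, 274 and 283 in VMHpvll, again without overlap. Its log2 difference was -0.37 ± 0.10 (SE, adjusted p = 0.00629). Of the 3 RZ genes, 1 was thus higher in VMHpvlm, 1 was lower and 1 was not called.

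R7 proteins work as obligate dimers with the beta subunit encoded by Gnb5. Rgs7, the most abundant R7 gene, had 799, 783 and 838 normalised read counts in VMHpvlm and 829.9, 767 and 917 in VMHpvll. Rgs9, best known from retina and striatum, had 521, 454 and 463 in VMHpvlm and 500.2, 421 and 422 in VMHpvll, and neither gene was called. Rgs11, known from retinal bipolar cells, was the only called R7 gene, with 149, 72.2 and 114 in VMHpvlm, against 87.9, 62.5 and 64.8 in VMHpvll. Its libraries overlapped between the regions, but each pair was higher in VMHpvlm, with a log2 difference of 0.59 ± 0.17 (SE, adjusted p = 0.00802). The exons of Arhgdig, on the opposite strand, cover 3.28% of the exon bases of Rgs11. Arhgdig was also called higher in VMHpvlm (adjusted p = 0.0367), with means of 428 in VMHpvlm and 363 in VMHpvll. The part of Arhgdig reads in the Rgs11 difference was not tested. Rgs6 was not called, with means of 89.6 ± 5.51 in VMHpvlm and 109 ± 15.6 in VMHpvll (SD, n = 3 each). Rgs22, a divergent gene outside the 4 families, had 31.2, 27.8 and 18.2 in VMHpvlm and 14.3, 8.94 and 19.2 in VMHpvll, and was not called (adjusted p = 0.0891). The calls of Rgs11, Rgs14 and Rgs20 were lost without the F19 pair and that of Rgs11 also without the KH_161103 pair.

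Per kilobase of exon, which allows levels of different genes to be compared, Rgs4 had 700.6 ± 62.0 in VMHpvlm and 1370.2 ± 94.6 in VMHpvll (SD, n = 3 each). Rgs17 followed in VMHpvlm with 310.1 ± 3.07, against 316 ± 27.1 in VMHpvll, where it lay beside Rgs2. Rgs2 had 204 ± 7.77 per kilobase in VMHpvlm and 326 ± 17.1 in VMHpvll. Rgs17 lay above Rgs2 in VMHpvlm by more than their SDs, whereas in VMHpvll their means differed by less than an SD. Summed over the 21 RGS genes, the level per kilobase was 2019.9 ± 57.1 in VMHpvlm and 2878 ± 128 in VMHpvll. Rgs4 alone made up 34.6 ± 2.12% of that sum in VMHpvlm and 47.6 ± 1.42% in VMHpvll. Its share was 32.4%, 35% and 36.5% in the VMHpvlm libraries and 46.9%, 46.6% and 49.2% in the VMHpvll libraries. Rgs17 held 15.4 ± 0.43% in VMHpvlm and 11 ± 0.59% in VMHpvll. The length was the union of all annotated exons of a gene, which lowers the level of genes with many alternative exons.

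**Figure D3:**
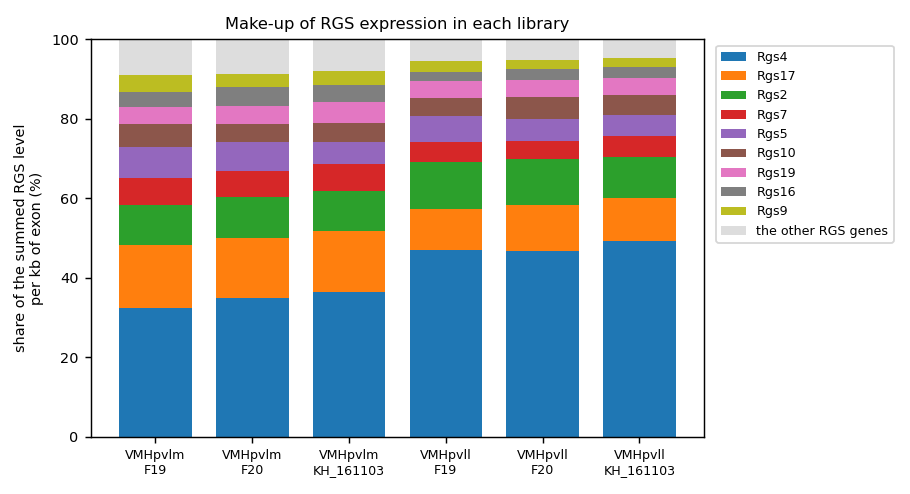
Share of RGS genes in the summed RGS level per kilobase of exon, the less abundant ones pooled in grey, as stacked bars from 0 to 100% for the 6 libraries, VMHpvlm left of VMHpvll. The Rgs4 segment covers 32.4% to 36.5% of the VMHpvlm bars and 46.6% to 49.2% of the VMHpvll bars.

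Alpha subunits decide which pathway a receptor acts on. The Gs family stimulates adenylyl cyclase and has 2 members, Gnas, expressed in all cells, and Gnal, which encodes Golf of olfactory neurons and striatum. They moved in opposite directions. Gnas had 12937, 13409 and 12258 normalised read counts in VMHpvlm, against 11475, 12242 and 10534 in VMHpvll. The difference was small but of the same sign in each pair, with a log2 difference of 0.17 ± 0.03 (SE, adjusted p = 4.49e-06). Other annotated genes, antisense to it, cover 21.96% of the exon bases of Gnas, and the use of strand in counting is not given in the sources used here. Gnal had 1300.2, 1269 and 1144 in VMHpvlm, against 1581, 1757 and 1661 in VMHpvll, without overlap, with a log2 difference of -0.43 ± 0.05 (SE, adjusted p = 7.06e-09). Mppe1, on the other strand, covers 7.63% of the exon bases of Gnal. Mppe1 was also lower in VMHpvlm without overlap, with means of 38.0 in VMHpvlm and 56.2 in VMHpvll, but was not called (adjusted p = 0.0727). Within a library, the Gnal count was 9.62 ± 0.381% of the Gnas count in VMHpvlm and 14.6 ± 1.02% in VMHpvll (SD, n = 3 each). The 5 tested GABAergic markers were all called lower in VMHpvlm, and their part in the Gnal difference was not tested.

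Among Gi/o genes, Gnao1, the most abundant by read count, was not called, with 5544, 5815 and 5603 normalised read counts in VMHpvlm and 5219, 5424 and 5377 in VMHpvll. Its libraries did not overlap, and the adjusted p was 0.0802. Gnai2, which is expressed widely, immune cells and glia included, was lower in VMHpvlm, with 2178, 2326 and 2289.7 there, against 2693, 2727 and 2783 in VMHpvll. The regions did not overlap and the log2 difference was -0.27 ± 0.04 (SE, adjusted p = 1.48e-06). Gnai1, another Gi gene and abundant in brain, had 1092, 1212 and 1297 in VMHpvlm, against 1012, 1139 and 1092 in VMHpvll. The regions overlapped and the call was marginal, with a log2 difference of 0.15 ± 0.05 (SE, adjusted p = 0.0433). Gnaz, whose product Gz is an inhibitory alpha subunit that hydrolyses GTP slowly without an RGS protein, had 1487, 1557 and 1767 in VMHpvlm, against 1215, 1586 and 1396 in VMHpvll. The F20 pair had a log2 difference of -0.03 and the other pairs 0.29 and 0.34, for a fitted difference of 0.20 ± 0.06 (SE, adjusted p = 0.00706). The calls of Gnai1 and Gnaz were lost without the F19 pair and without the KH_161103 pair. Gnai3 was not called, with means of 201 ± 19.4 in VMHpvlm and 236 ± 23.7 in VMHpvll (SD, n = 3 each).

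Of the Gq family, which activates phospholipase C beta, Gnaq and Gna11 carried nearly all reads and were not called. Gnaq had 2420.4, 2428 and 2269 normalised read counts in VMHpvlm and 2179.8, 2269.6 and 2275 in VMHpvll. Gna11 had 851, 868 and 892 in VMHpvlm and 897, 968 and 905 in VMHpvll. Gna14, a rarer Gq gene with restricted expression that lies next to Gnaq on chromosome 19, had the largest called difference of all members. It had 13.5, 4.16 and 6.36 in VMHpvlm, against 24.2, 35.7 and 37.4 in VMHpvll, without overlap. The log2 difference was -2.0 ± 0.39 (SE, adjusted p = 0.000105), with -0.79, -2.83 and -2.38 in the pairs. It rests on 20 reads in VMHpvlm and 87 reads in VMHpvll. For the G12/13 family, whose signals reshape the actin cytoskeleton, Gna13 had 599, 708 and 666 in VMHpvlm, against 843, 745 and 723 in VMHpvll. Its log2 difference was -0.23 ± 0.07 (SE, adjusted p = 0.0145), and without the F19 pair it was not called. Gna12 was not called, with means of 383 ± 9.76 in VMHpvlm and 427 ± 40.0 in VMHpvll (SD, n = 3 each).

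Summed per kilobase over all 16 alpha genes, the level was 4077 ± 93.2 in VMHpvlm and 4028 ± 137 in VMHpvll (SD, n = 3 each), a gap smaller than the spread between libraries. Gnas held 28.2 ± 1.16% of this sum in VMHpvlm and 25.3 ± 1.45% in VMHpvll. Gnai2 held 14.7 ± 0.209% in VMHpvlm and 18 ± 0.643% in VMHpvll. The transducins Gnat1, Gnat2 and the taste subunit Gnat3 were at or near 0, and Gnat1 had 0 reads in VMHpvlm and 6 reads in VMHpvll. Gna15, known from blood cells, had means of 8.07 ± 1.68 in VMHpvlm and 8.27 ± 5.26 in VMHpvll (SD, n = 3 each).

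**Figure D4:**
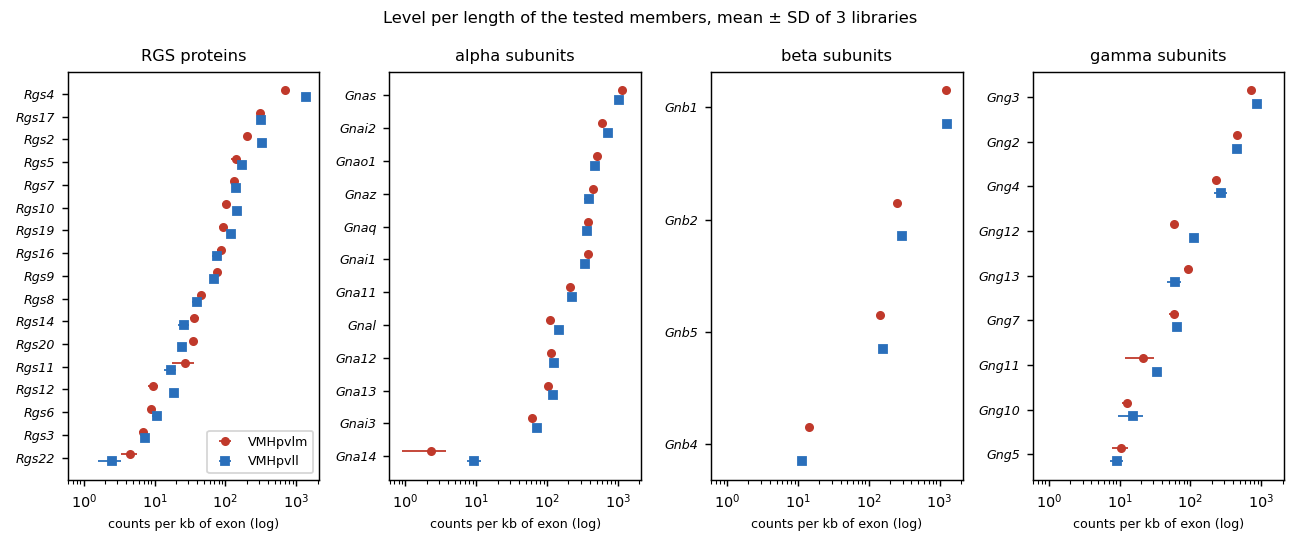
Level per kilobase of exon on a logarithmic axis for the members of each class, with the mean of VMHpvlm above that of VMHpvll for each gene and bars for the SD over 3 libraries. Rgs4 leads the RGS genes at 700.6 in VMHpvlm and 1370.2 in VMHpvll, and Gnas and Gnb1 lead the alpha and beta subunits in both regions.

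Beta and gamma subunits form the dimer that opens GIRK potassium channels and inhibits presynaptic calcium channels. Gnb1, the most abundant beta gene, had 5109, 5212 and 5717 normalised read counts in VMHpvlm and 5096, 5525 and 5558 in VMHpvll, and was not called (adjusted p = 0.851). It held 75.4 ± 0.449% of the beta sum per kilobase in VMHpvlm and 73.2 ± 0.988% in VMHpvll (SD, n = 3 each). Gnb2 was the only called beta gene, with 818, 824 and 921 in VMHpvlm, against 1003, 995 and 997 in VMHpvll. Its libraries did not overlap and its log2 difference was -0.23 ± 0.06 (SE, adjusted p = 0.00318), a call lost without the F19 pair. Gnb5, the partner of the R7 proteins, had 451, 434 and 445 in VMHpvlm and 486, 500.4 and 480.2 in VMHpvll, without overlap and without a call (adjusted p = 0.214). Gnb4 had 184, 172 and 188 in VMHpvlm and 141, 155 and 139 in VMHpvll, also without overlap and just short of a call (adjusted p = 0.0541). The cone subunit Gnb3 did not reach a mean of 10.

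Gamma subunits anchor the dimer in the membrane through a lipid at their C terminus and differ most between cell types. Gng12, which is expressed in glia and other non-neuronal cells as well as in some neurons, had the largest difference among the tested gamma genes. Gng12 (ENSMUSG00000036402, chr6:66896397-67021350, plus strand) had 280.4, 308 and 248 normalised read counts in VMHpvlm, against 539, 519.8 and 518 in VMHpvll. All VMHpvlm libraries were far below all VMHpvll libraries, with a log2 difference of -0.92 ± 0.08 (SE, adjusted p = 6.26e-12). The sum of 10 astrocyte markers was between 30575 and 32965 in VMHpvlm and between 35882 and 40985 in VMHpvll, with 4 of 10 called lower in VMHpvlm. Slc1a2 was most of that sum, with means of 19437 in VMHpvlm and 24863 in VMHpvll. Only Aldoc among the 10 had a higher mean in VMHpvlm, and it was not called. Of the oligodendrocyte markers, 9 of 10 were called lower in VMHpvlm. The part of glia in the Gng12 difference was not tested.

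Gng13, known from taste cells, olfactory neurons and retina, was the only gamma gene called higher in VMHpvlm. It had 62.3, 80.5 and 74.5 normalised read counts in VMHpvlm, against 38.5, 58.1 and 43.8 in VMHpvll, without overlap. The log2 difference was 0.63 ± 0.20 (SE, adjusted p = 0.0166), and the call was lost without the F19 pair and without the KH_161103 pair. The exons of Chtf18, on the opposite strand, cover 51.62% of the exon bases of Gng13. Chtf18 itself had 4.06, 4.16 and 3.63 in VMHpvlm and 3.3, 5.96 and 3.65 in VMHpvll, well below Gng13.

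Gng3, the most abundant gamma gene per kilobase and a neuronal one, had 1073, 1144 and 1295 normalised read counts in VMHpvlm, against 1325, 1473 and 1456 in VMHpvll. The regions did not overlap and the log2 difference was -0.28 ± 0.05 (SE, adjusted p = 5.1e-05). Bscl2 covers 24.22% of its exon bases on the other strand, and Bscl2 was not called. Gng4 had 654, 808 and 810.2 in VMHpvlm, against 702, 919 and 1078 in VMHpvll, with overlap between the regions but the same sign in each pair. Its log2 difference was -0.23 ± 0.06 (SE, adjusted p = 0.00497), and it was not called without the KH_161103 pair. Gng2, abundant in brain, had 2129, 2074 and 1875 in VMHpvlm and 2026, 2019 and 1986 in VMHpvll, and was not called (adjusted p = 0.927). Gng7, the partner of Golf in the striatum, had 188, 258 and 223 in VMHpvlm and 255, 271 and 219 in VMHpvll, and was not called. Gng5, Gng10 and Gng11 were not called either, with region means between 16.7 and 30.9, and 72.0% of the exon bases of Gng10 lie under a predicted gene. The rod and cone subunits Gngt1 and Gngt2 and the olfactory Gng8 did not reach a mean of 10.

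Beyond the members, 42 further genes of the pathway were followed as 5 lists. Of the 35 tested, 12 were called, 6 higher in VMHpvlm and 6 lower, which is 34.3% against 20% of all tested genes. Direct effectors held 8 of these calls among 11 tested genes. Plcb1, a phospholipase C that Gq activates, had 1552, 1693 and 1599 normalised read counts in VMHpvlm, against 882, 947 and 999 in VMHpvll, with a log2 difference of 0.78 ± 0.05 (SE, adjusted p = 4.73e-16). Plcb4, another Gq effector, had 1464, 1585 and 1419.6 in VMHpvlm, against 828, 932 and 925 in VMHpvll, with a log2 difference of 0.74 ± 0.05 (SE, adjusted p = 7.92e-15). Neither gene overlapped between the regions, while Gnaq itself was not called. Plcb3, chosen here after its values were seen, went the other way, with a log2 difference of -0.45 ± 0.13 (SE, adjusted p = 0.00823), and its call was lost without the KH_161103 pair.

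Kcnj3, which encodes the GIRK1 channel subunit opened by beta-gamma, had 734, 863 and 827 normalised read counts in VMHpvlm, against 459, 472 and 483 in VMHpvll. The log2 difference was 0.77 ± 0.07 (SE, adjusted p = 1.68e-12). The other GIRK genes were chosen after their values were seen. Kcnj5 and Kcnj9 were also higher in VMHpvlm, with log2 differences of 0.89 ± 0.18 (SE, adjusted p = 0.000134) and 0.42 ± 0.08 (SE, adjusted p = 4.53e-05). Kcnj6, the GIRK2 gene, had 455, 401 and 437 in VMHpvlm, against 594, 589.7 and 480.2 in VMHpvll, with a log2 difference of -0.36 ± 0.08 (SE, adjusted p = 0.000499). Thus 3 GIRK genes were higher and 1 was lower in VMHpvlm.

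**Figure D5:**
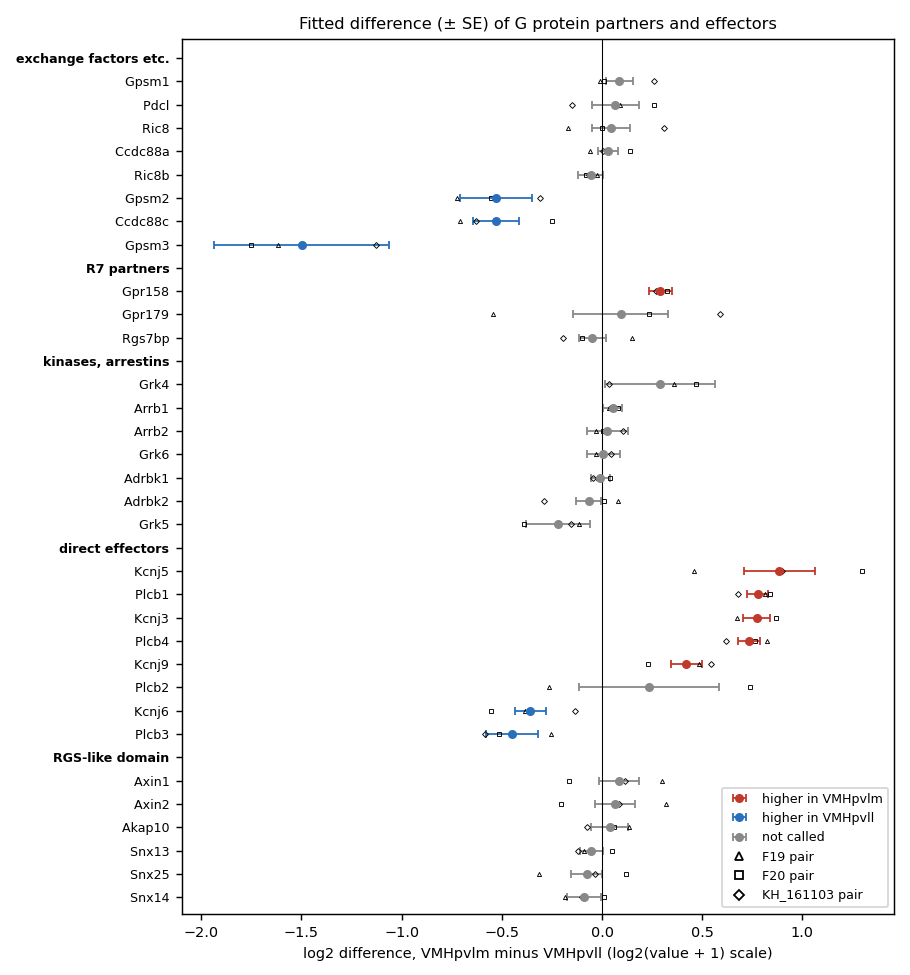
Log2 difference (VMHpvlm minus VMHpvll, pseudocount 1) of tested partner genes by list, with bars for the standard error and colours for the call. Plcb1, Plcb4 and Kcnj3 lie to the right between 0.74 and 0.78, and no receptor kinase or arrestin is coloured as called.

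Exchange factors, GPR-motif proteins and chaperones had 3 called genes of 8 tested, all lower in VMHpvlm. That is 37.5%, against 20% of all tested genes. Ccdc88c, a non-receptor activator of Gi alpha, had 153, 178 and 157 normalised read counts in VMHpvlm, against 251, 211 and 244 in VMHpvll, with a log2 difference of -0.53 ± 0.12 (SE, adjusted p = 0.000467). Gpsm3, which binds inactive Gi and is known from immune cells, had 5.42, 4.16 and 9.08 in VMHpvlm, against 18.7, 16.4 and 21 in VMHpvll (adjusted p = 0.00997). Gpsm2, which binds Gi during spindle orientation, had 58.2, 51.4 and 65.4 in VMHpvlm, against 96.7, 76 and 81.2 in VMHpvll (adjusted p = 0.0308). The Gpsm2 call was lost on leaving out any pair and the Gpsm3 call without the KH_161103 pair, and both were lost with DESeq2. Ccdc88a, the most abundant of that list by read count, was not called. Among partners of the R7 family, Gpr158, an orphan receptor that binds RGS7, had 1006, 1079 and 1042 in VMHpvlm, against 829, 862 and 864 in VMHpvll, with a log2 difference of 0.29 ± 0.06 (SE, adjusted p = 9.6e-05). Rgs7bp, the membrane anchor of R7 dimers, was not called. Receptor kinases and arrestins had 0 called genes of 7 tested by limma, with 0 at an unadjusted p below 0.05 and 0 by edgeR and DESeq2. Arrb1, the most abundant by read count, had means of 1820.5 ± 46.8 in VMHpvlm and 1756 ± 70.4 in VMHpvll (SD, n = 3 each). Other proteins with an RGS-like domain had 0 called genes of 6 tested by limma, and again 0 at an unadjusted p below 0.05 and 0 by edgeR and DESeq2, with Snx13 the most abundant by read count. Lists this short can hold 0 called genes where limma called 20% of all tested genes.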

How the data were processed

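RNA of laser-captured VMHpvlm and VMHpvll was extracted with PicoPure and made into libraries with the Clontech SMARTer stranded total RNA kit, per the labels' protocols. HISAT2, featureCounts and genome build mm10 are named without versions in the submitters' processing notes. An annotation, scaling tool or strand setting is not given in the sources used here, and reads of a gene and its antisense partner cannot be separated. The deposited signal holds normalised read counts, and dividing them by the smallest step of each library gave whole reads, within 0.05 reads, for 99.9953% or more of those above 0. On the recovered reads, edgeR 4.0.16 called 1521 genes higher in VMHpvlm and 1510 higher in VMHpvll, and DESeq2 1.42.0 called 648 and 582 in these directions.

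From the deposited values, log2(value + 1) was fitted with limma 3.58.1 in R 4.3.3 (eBayes with trend and robust) for genes averaging 10 or more normalised read counts. Region was tested two-sided with the pair as a fixed block and Benjamini-Hochberg adjustment over 14522 genes. The model left 2 residual degrees of freedom per gene and the variance prior added a median of 39.9. The fit was tested on simulated data. Libraries were paired by the names in their titles. After subtracting each region's mean, libraries of the same name had correlations over genes of 0.26, 0.24 and 0.36, and other combinations had -0.25 to 0.01. The subtraction makes the deviations cancel within a region. Positive values for shared names therefore push the others down, and the contrast is not independent support for the pairing. The KH_161103 titles do not name a region, which was taken from the source name. The labels do not tie libraries to animals, and libraries may share one. The p-values therefore do not measure spread between animals and may be too small. They rest on differences within pairs, with a variance drawn mostly from other genes through the prior. Under limma without trend or robust, with a median prior of 1.78 degrees of freedom, 17 of the 21 called members were not called. No library was a repeat of another: within a region the chi-square per degree of freedom was 5.54 to 9.83.

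Per kilobase levels used the union of exons in GENCODE M21. Members were every gene whose symbol fits the RGS or G protein subunit pattern. Values per library are given for the called members, at most 8 per direction by size first, and the most abundant of each family, and among partners for up to 3 called genes per list by smallest p beside 1 uncalled gene by name. Those of Rgs8, Rgs9, Gna11, Gnb4, Gnb5 and Gng7, none of them called, are given outside this rule. Members and lists were chosen with earlier results of these data known. Grk2, Grk3 and Ric8a are listed as Adrbk1, Adrbk2 and Ric8. Some effector genes are counted in their list but are not reported here. Alternatives were other pseudocounts, filters, scalings, tools, no block and leaving out each pair.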

Additional observations from a re-analysis of the deposited data

How the results depend on the processing

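With the pair as a block, leaving out a library leaves out its pair. None of the 21 called members changed sign under the 15 alternatives, of which Gna14 could be fitted under 14, since a minimum mean of 50 removes it. Several of these could not change a sign. No block, the pair as a random effect, other filters and limma without trend or robust leave the fitted difference as it is. Leaving out a pair averages the remaining ones, so it cannot reverse the 20 called members whose 3 pairs have the same sign. Nor could it reverse Gnaz, whose pairs gave 0.29, -0.03 and 0.34. Rgs4, Rgs2, Rgs12 and Gng12 were called under all 15. Members called higher in VMHpvlm numbered 7, against 2 with no replicate block, 0 with limma without trend or robust, 1 with DESeq2 and between 1 (without F19) and 9 (without F20) on leaving out a pair, with 4 without KH_161103. Members called higher in VMHpvll numbered 14, against 4 with limma without trend or robust and 8 with DESeq2, between 12 and 15 on leaving out a pair, and 11 with no replicate block. Over all genes, calls higher in VMHpvlm numbered 1528, against 937 with no replicate block, 189 with limma without trend or robust, 648 with DESeq2 and between 935 (without KH_161103) and 1511 on leaving out a pair. Calls higher in VMHpvll numbered 1377, against 863, 233 and 582 under the same settings and between 838 (without KH_161103) and 1361. Partners called higher in VMHpvlm numbered 6, against 3 with limma without trend or robust. Those called higher in VMHpvll numbered 6, against 1 with limma without trend or robust, 3 with DESeq2 and between 3 (without KH_161103) and 5 (without F20), with 4 without F19. The cause of these changes was not tested.

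Small differences that were not called changed sign. Gnb1 gave 0.0102 with the same total and between -0.0403 and 0.0222 on leaving out a pair. Gng2 gave -0.0024 with the same upper quartile, -0.0017 with edgeR and between -0.0223 and 0.0550 on leaving out a pair. Rgs17 gave 0.0010 with the same total and between -0.0940 and 0.0319 on leaving out a pair. On leaving out a pair, Gng5 lay between -0.1673 and 0.4513, Ccdc88a between -0.0284 and 0.0721 and Rgs7bp between -0.1464 and 0.0259. Depth limits the rare members, since Gna14 had 3 reads in its lowest library and 12 members were too low to test.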

Other observations

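Several members lie next to each other in mm10. Rgs4 and Rgs5 lie 45.7 kb apart on chromosome 1, with log2 differences of -0.97 and -0.28. Rgs8 and Rgs16 lie 40.0 kb apart on the same chromosome and were not called, with 0.21 for both. Rgs2 lies in a run with Rgs13, Rgs1, Rgs21 and Rgs18, of which only Rgs2, with 741 ± 28.2 normalised read counts in VMHpvlm and 1182 ± 62 in VMHpvll (SD, n = 3 each), reached a mean of 10. Gnaq and Gna14 lie 48.3 kb apart on chromosome 19, with log2 differences of 0.08 and -2.0. Rgs9 and Gna13 lie 64.7 kb apart on chromosome 11, with 0.10 and -0.23.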
